A study of Mus musculus with 15 samples.

Results

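Gene expression was compared between old and young gastrocnemius, the calf muscle that extends the ankle and in mice is built chiefly of fast fibres, on 10 Illumina MouseRef-8 bead arrays of a study with 15. The old arrays came from 5 male mice of 28 months and the young arrays from 5 male mice of 5 months, each mouse on an array of its own, and 5 further mice of 17 months entered only the normalisation and the shared estimate of spread. All animals were C57BL/6J males from the Jackson Laboratory kept at the Gerontology Research Center on the same chow, with no treatment named in the labels, and RNA was taken from flash-frozen muscle tissue with whatever cell types each piece held. Probes whose signal exceeded background (detection p below 0.05) on 5 or more of these 10 arrays were kept, which left 12014 of 25697 probes. The brightest probe stood for each gene and probes unnamed here stayed single, giving 9081 features, of which 8408 were named genes (of 16593 on the array) and 673 were unnamed.

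A muscle fibre contracts when a nerve impulse spreads along its membrane, opens calcium stores and lets myosin pull on actin, and the fibre renews the proteins of this machinery throughout life. Late in life rodent limb muscle loses fibres and nerve contacts, and macrophages and matrix-forming cells share the tissue with the fibres that remain. Beside these well-known changes, old muscle is known to differ in stress signalling, metabolism, transport and gene regulation, and these less described genes are the subject here.

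Values below are log2 intensities after background correction and quantile normalisation, differences are old minus young on that scale, errors of differences are standard errors with n = 5 per group, and adjusted p-values are two-sided values from limma over all 9081 features. A gene is described as changed, higher or lower where its adjusted p was under 0.05. Unless an exception is given beside it, each changed gene given with its values kept that call in every one of 25 alternative fits in which it was tested, which varied the background correction, scaling, filter, probe choice and arrays, while the separate test of the methods is treated with the limits. Between 11534 and 12593 probes were detected per array, and any pair of the 10 arrays correlated at 0.945 to 0.993. Old replicate 3 stood apart, with the lowest of the 15 array weights (0.15), a measure of how closely an array follows the mean of its group, and old replicate 5 had the next lowest among the old arrays (0.44). The 10 muscle fibre markers, which include Acta1 and Ckm, all passed the filter, with a summed intensity of 300763 to 318367 on old arrays and 268934 to 304557 on young arrays.

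In old muscle 303 features changed, 156 higher and 147 lower, which is 3.34% of those tested (1.72% higher and 1.62% lower). They comprised 277 named genes, 143 higher and 134 lower, and 26 unnamed probes. Large changes ran mostly upward: 46 features were more than 2-fold higher and 25 more than 2-fold lower, and 8 were more than 4-fold higher against 1 more than 4-fold lower. The median difference was 0.80 among the higher and -0.73 among the lower features, against -0.02 over all features. Old and young arrays did not overlap for 209 of the 303 (427 of all features, or 4.70%, did not overlap). Of the changed features 1 was detected on no old array and 9 on no young array. The even split depended on the scaling, because with each array scaled to its median 130 features were called, 81 higher and 49 lower.

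**Figure D1:**
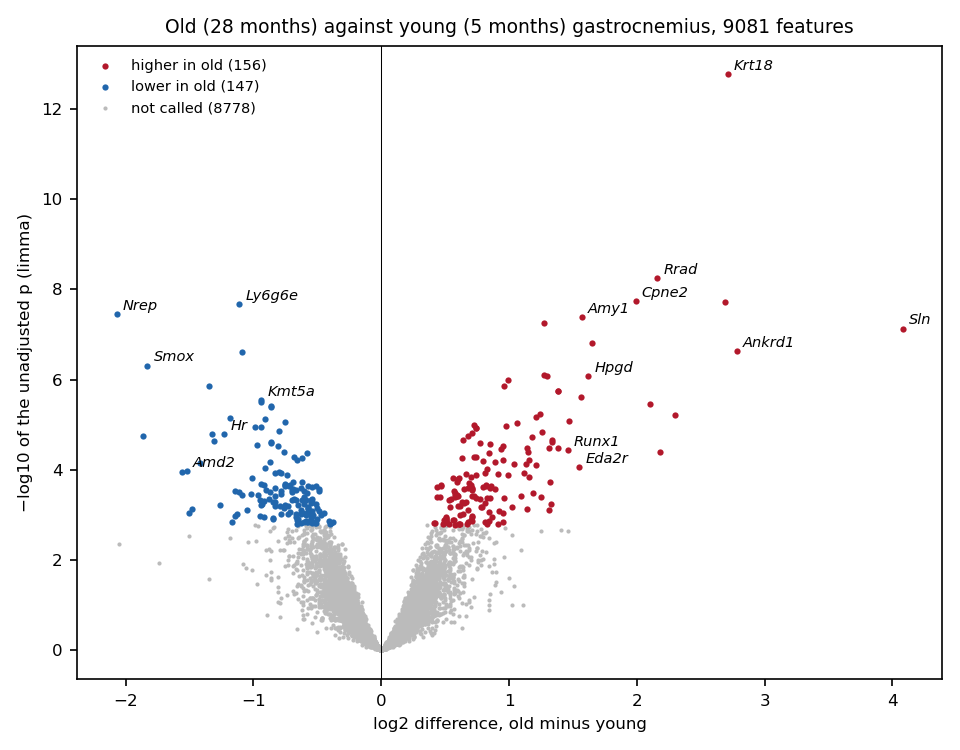
Each point is 1 of the 9081 features, with the log2 difference of old minus young on the x axis and −log10 of the unadjusted limma p on the y axis. Red points are the 156 features called higher and blue points the 147 called lower in old muscle, and the red points reach farther from 0 than the blue.

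The number of changed features moved with single arrays. Without old replicate 5 it was 711, without old replicates 1 and 4 it was 191 and 179, and without young replicates 1, 2, 3, 4 and 5 it was 189, 194, 193, 181 and 151. Without old replicate 3 it was 436. Under all 25 alternatives that tested them, 84 features kept their call, 54 higher and 30 lower, and 76 of these were named genes. The account below rests mainly on those genes.

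Of the 277 named genes, 238 were placed in 12 groups by what their proteins are known to do, a grouping made after the values were seen and carrying no test. Immunity held 27 higher and 3 lower genes and the extracellular matrix 1 higher and 10 lower. Sarcomere, cytoskeleton and cell junctions (14 higher, 7 lower) and transporters (12 higher, 5 lower) held more higher than lower genes, and transcription and chromatin more lower than higher ones (6 higher, 14 lower). Enzymes of metabolism were split evenly (15 higher, 15 lower), as were genes of cell cycle, DNA repair and cell death (9 and 9) and of membrane traffic (9 and 9). In whole muscle, fewer cells of a type and less RNA per cell cannot be told apart.

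**Figure D2:**
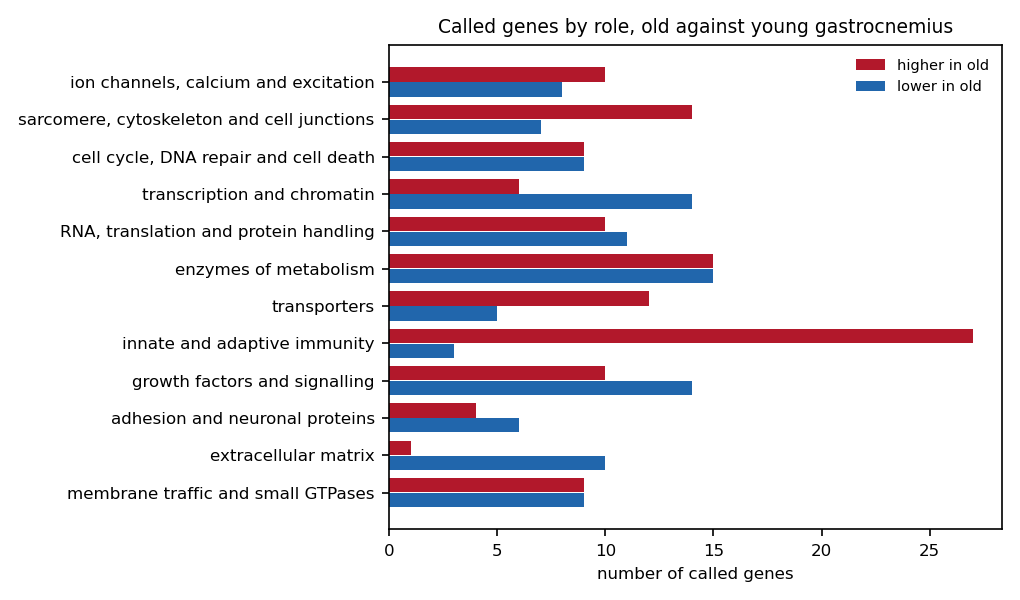
Number of called genes in each of 12 groups of known function, with red bars for genes higher and blue bars for genes lower in old muscle. Immunity has 27 higher against 3 lower genes and extracellular matrix 1 against 10, while metabolism has 15 of each.

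To show the DNA in front of changed genes, promoter sequence from RefSeq was matched for 6858 of the 8408 named genes, including 119 of the 143 higher and 107 of the 134 lower genes. The TATA motif TATAAA, searched on both strands over 250 bases before and 50 bases after each start site, was found in 9.46% of all tested genes, in 20 of the 119 higher genes (16.8%) and in 9 of the 107 lower genes (8.41%). On the gene's own strand, beginning 20 to 40 bases before the start site where the transcription machinery binds it, it was found in 1.72% of all, 6 of the 119 higher and 2 of the 107 lower genes. These are descriptions of the letters in the window with no test. Below are the 60 bases just before the start site of 5 of the 6 higher genes with the motif there. The bases run 5′ to 3′ on the strand of the gene, with the motif in capitals (RefSeq, GRCm38.p6). A single chromosome was left out of this display, and each of the 5 genes shown kept its call in all alternatives. They are Amy2a5 (chr3:113258700-113258759, minus strand), Ccl8 (chr11:82115125-82115184, plus strand), Gdnf (chr15:7809988-7810047, plus strand), S100a8 (chr3:90669011-90669070, plus strand) and Tal2 (chr4:53779641-53779700, plus strand).
Amy2a5: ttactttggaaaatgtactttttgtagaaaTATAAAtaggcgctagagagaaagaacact
Ccl8: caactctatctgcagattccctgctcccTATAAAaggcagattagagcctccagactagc
Gdnf: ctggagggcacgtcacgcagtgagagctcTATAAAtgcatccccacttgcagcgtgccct
S100a8: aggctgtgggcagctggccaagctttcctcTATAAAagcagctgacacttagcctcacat
Tal2: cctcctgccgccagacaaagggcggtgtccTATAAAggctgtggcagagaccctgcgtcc
The motif begins 30, 32, 31, 30 and 30 bases before the start site in these 5 genes. The values of Amy2a5 and Gdnf are given further on, with the metabolic enzymes and the growth factors. Ccl8, a chemokine for monocytes, was detected on 5 old and 0 young arrays and was at least 5.52-fold higher (2.69 ± 0.28, adjusted p = 3.84e-05). S100a8, a calcium-binding protein of neutrophils, was detected on 5 old and 2 young arrays and was 4.54-fold higher (2.18 ± 0.41, adjusted p = 0.00547). Tal2, a helix-loop-helix factor of blood and brain, was 1.64-fold higher (0.71 ± 0.12, adjusted p = 0.00317).

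Genes of fibre excitability and calcium signalling included higher and lower ones. The markers of fibres without a nerve, a list that holds Rrad, Krt18, Ncam1 and Runx1, had a summed intensity of 8684 to 18801 on old arrays and 4014 to 5133 on young arrays. Of the 16 markers tested 10 were called higher (62.5%, against 1.72% of all features), with a median difference of 1.23. The list was chosen with earlier results of these data known, so this share carries no test. The part of these markers in the levels of the genes below was not tested. Rrad, a small GTPase that restrains voltage-gated calcium channels, measured 8.32, 8.52, 8.58, 7.72 and 7.80 on the old arrays and 5.87, 5.91, 5.79, 6.60 and 5.97 on the young arrays. No old array came near a young one, and the gene was 4.48-fold higher in old muscle (2.16 ± 0.21, adjusted p = 2.51e-05). Kcnab1, a beta subunit that shapes the current of voltage-gated potassium channels, measured 8.39, 8.38, 9.10, 8.37 and 8.92 in old and 7.78, 7.59, 7.96, 7.05 and 6.91 in young muscle. The groups were again separate, at 2.26-fold (1.18 ± 0.20, adjusted p = 0.0034), and a further probe of Kcnab1 gave a difference of 1.01. Atp1b4, a muscle member of the sodium pump beta subunit family, was 2.53-fold higher (1.34 ± 0.24, adjusted p = 0.00399).

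Kcnj12, an inward rectifier potassium channel that helps to set the resting potential, measured 6.91, 7.21, 7.41, 6.97 and 7.79 on the old arrays and 8.36, 8.15, 7.81, 7.98 and 8.15 on the young arrays. The lowest young array lay just above the highest old one, and Kcnj12 was 1.78-fold lower (-0.83 ± 0.17, adjusted p = 0.0114), a call lost under median scaling alone (adjusted p = 0.0836). A pair of isoforms of the calcium and calmodulin kinase, which decodes calcium pulses in fibres, changed in opposite directions. Camk2b measured 12.10, 12.26, 11.84, 12.55 and 12.61 in old and 11.54, 11.60, 11.58, 11.56 and 11.51 in young muscle, a 1.64-fold rise (0.71 ± 0.16, adjusted p = 0.0176) lost without old replicate 4 (adjusted p = 0.0554) and under median scaling (0.308). Camk2a measured 9.87, 10.22, 10.14, 10.24 and 11.14 in old and 11.16, 11.24, 11.09, 11.10 and 11.15 in young muscle, where only old replicate 5 reached the young range. It was 1.77-fold lower (-0.83 ± 0.19, adjusted p = 0.0212), and lost its call under median scaling (adjusted p = 0.118), without young replicate 2 (0.0549) or 5 (0.0566) and without old replicate 1 (0.0615) or 4 (0.0565). Of the 27 calcium handling genes tested, 4 rose and 1 fell with a median of -0.06, and of 22 channels and pumps of the fibre membrane 1 rose and 2 fell with a median of -0.07, against -0.02 over all features. The shares called were 18.5% and 13.6% of these lists, against 3.34% of all features. The 4 calcium handling genes that rose were Rrad, Sln, Camk2b and Cacng1. Sln, also a marker of fibres without a nerve, had the largest rise of all changed features (16.9-fold, 4.08 ± 0.47, adjusted p = 7.48e-05).

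Among the keratins, tubulins and genes of the cortical cytoskeleton 3 of 45 were higher, Krt18, Krt8 and Tubb6, and Ank1 was lower, which is 8.89% called against 3.34% of all features. The median was 0.05, with 25 positive and 20 negative differences. Keratins are filament proteins best known from epithelia. Krt18 measured 7.15, 7.03, 7.71, 6.97 and 6.77 on the old arrays and 4.41, 4.44, 4.33, 4.45 and 4.43 on the young arrays. The gene was detected on 5 old and 0 young arrays, and against the background of the young arrays it was higher by at least 4.72-fold (2.71 ± 0.14, adjusted p = 1.56e-09, the lowest of all features). Its filament partner Krt8 measured 6.00, 6.31, 7.59, 5.75 and 6.24 in old and 5.04, 4.99, 4.85, 5.13 and 5.18 in young muscle. Old replicate 3 was the highest by more than a log2 unit and the groups did not overlap (2.53-fold, 1.34 ± 0.24, adjusted p = 0.00384).

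Of the other structural genes, Ankrd1, a stress-responsive protein of the sarcomere, was 6.85-fold higher (2.78 ± 0.35, adjusted p = 0.000185) and Myh8, the perinatal myosin heavy chain, 4.29-fold higher (2.10 ± 0.32, adjusted p = 0.00126). Both belong to the markers of fibres without a nerve. Mustn1, a small nuclear protein of muscle and skeleton, measured 11.22, 11.36, 10.46, 10.90 and 11.46 in old and 10.21, 10.14, 10.17, 10.02 and 10.11 in young muscle. Old replicate 3 was the closest to the narrow young range, and the difference was 1.93-fold (0.95 ± 0.17, adjusted p = 0.00454). The desmosomal plaque gene Pkp2 was 1.80-fold higher (0.85 ± 0.15, adjusted p = 0.00426, but 0.056 under median scaling) and the vesicle-carrying motor Myo5a 1.74-fold higher (0.80 ± 0.15, adjusted p = 0.00734). Palld, an actin-bundling protein, was 1.68-fold lower (-0.75 ± 0.12, adjusted p = 0.00228, but 0.0836 under median scaling). Of 55 genes of the sarcomere and Z-disc 4 rose and 1 fell, 9.09% called against 3.34% of all features. In estimate 38 of the 55 were higher, with a median of 0.30 against -0.02 over all features. The median deviation of that list from the young mean was 0.34, 0.34, 0.30 and 0.27 on old replicates 1 to 4 and -0.11 on old replicate 5, against -0.03 to 0.03 on the young arrays. Old replicate 5 also had the lowest slow fibre markers, whose summed intensity ran from 19356 to 99898 on old arrays and 34880 to 63711 on young arrays, and the part of fibre type in the list's level was not tested.

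In the group of cell cycle, DNA repair and cell death, 9 genes rose and 9 fell. Cdkn1a, the inhibitor of cyclin-dependent kinases that p53 induces, measured 9.43, 8.85, 9.73, 8.92 and 9.48 on the old arrays and 7.58, 7.43, 7.87, 8.49 and 8.16 on the young arrays. All old values exceeded all young ones (2.60-fold, 1.38 ± 0.20, adjusted p = 0.000795), and its other probes differed by 1.39 and 1.56. Eda2r, a p53-induced receptor of the tumour necrosis factor family that binds ectodysplasin, measured 7.25, 6.57, 8.57, 7.04 and 6.23 in old and 5.42, 5.64, 5.55, 5.43 and 5.89 in young muscle. The old arrays spread widely with old replicate 3 on top, and none fell into the young range (2.92-fold, 1.55 ± 0.31, adjusted p = 0.00927). Ddit4l, an inhibitor of mTOR signalling, measured 12.64, 12.42, 12.44, 12.19 and 13.12 in old and 13.45, 13.46, 13.25, 13.24 and 13.39 in young muscle. It was 1.74-fold lower in old muscle with no overlap (-0.80 ± 0.14, adjusted p = 0.00304).

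Pole, the catalytic subunit of DNA polymerase epsilon, was 1.67-fold higher (0.74 ± 0.12, adjusted p = 0.00258) and detected on 5 old and 2 young arrays. Faap100, a subunit of the Fanconi anaemia core complex that repairs DNA crosslinks, was 1.82-fold lower (-0.86 ± 0.13, adjusted p = 0.00134). Among 29 p53 targets and cell cycle inhibitors 4 rose and 1 fell (17.2% called against 3.34% of all features), the list's median was -0.04, and 15 of the 29 had a lower estimate in old muscle. Of the 4, Bbc3, which promotes cell death, was 1.70-fold higher (0.77 ± 0.18, adjusted p = 0.0223) and another of its probes gave -0.11. Its call was lost under median scaling (adjusted p = 0.0656), with all probes kept whatever their detection (0.0566), with the 10 arrays fitted alone (0.058), with the replicate block (0.0547), without young replicate 3 (0.054) or 5 (0.0694) and without old replicate 1 (0.0631) or 4 (0.0579).

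Metabolic enzymes made up the largest mixed group. Hpgd, which inactivates prostaglandins, measured 6.30, 7.26, 6.99, 6.77 and 6.59 on the old arrays and 4.95, 4.78, 5.20, 5.98 and 4.90 on the young arrays. Young replicate 4 was the highest young array and still below the old range (3.08-fold, 1.62 ± 0.22, adjusted p = 0.000478). Amy1, an amylase gene that splits starch and glycogen chains, measured 9.55, 9.82, 9.88, 9.88 and 8.98 in old and 8.01, 8.15, 8.14, 8.16 and 7.83 in young muscle. The groups were far apart relative to their spread (2.97-fold, 1.57 ± 0.17, adjusted p = 5.43e-05), and the probe for the closely similar Amy2a5 was 2.22-fold higher (1.15 ± 0.21, adjusted p = 0.00544). These amylase genes are near copies of each other, so which of them gave the signal is uncertain. Cyp1b1, a cytochrome of steroid and xenobiotic oxidation, was detected on 5 old and 0 young arrays and was at least 1.53-fold higher (0.89 ± 0.17, adjusted p = 0.00768).

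A gene of polyamine synthesis and one of spermine breakdown were both lower in old muscle. Amd2, for the decarboxylase that supplies the aminopropyl groups of spermidine and spermine, measured 9.65, 10.28, 11.45, 8.95 and 10.27 on the old arrays and 11.32, 11.76, 11.43, 11.59 and 12.09 on the young arrays. Old replicate 3 alone reached into the young range, and Amd2 was 2.86-fold lower (-1.52 ± 0.31, adjusted p = 0.0108), with the reservation that its sequence is nearly that of Amd1. Smox, the oxidase that turns spermine back into spermidine, measured 10.55, 11.38, 11.01, 10.87 and 12.11 in old and 12.82, 13.33, 12.89, 13.03 and 12.98 in young muscle. The separation was complete (3.54-fold lower, -1.83 ± 0.24, adjusted p = 0.000343) and 4 further Smox probes gave differences from -2.03 to -1.79. Of the 30 genes of polyamine, creatine, purine and one-carbon metabolism 1 rose and 3 fell (13.3% called, against 3.34% of all features), with a median of -0.09. The 3 that fell were Amd2, Smox and the lysine methyltransferase gene Mettl21c, which is not a gene of polyamine metabolism.

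Some single genes linked to lipid metabolism were lower in old muscle, while the medians of the lipid lists went both ways. Of 17 cholesterol synthesis genes 4 had positive and 13 negative differences, with a median of -0.07. Srebf1, the transcription factor that drives fatty acid synthesis, measured 5.49, 6.07, 5.44, 6.11 and 6.09 in old and 6.85, 6.61, 6.69, 7.01 and 6.91 in young muscle. Each old array was below each young one (1.96-fold lower, -0.97 ± 0.18, adjusted p = 0.00445). Hacd1, the muscle dehydratase of very-long-chain fatty acid elongation, was 1.98-fold lower (-0.99 ± 0.16, adjusted p = 0.00258) and Cbr2, a carbonyl reductase, 1.91-fold lower (-0.94 ± 0.16, adjusted p = 0.00258). Pon1, a lactonase carried on lipoproteins, measured 4.49, 4.62, 4.95, 5.30 and 4.86 in old and 6.30, 5.93, 6.26, 5.82 and 5.81 in young muscle and was detected on 3 old and 5 young arrays. It was 2.27-fold lower with no overlap (-1.18 ± 0.19, adjusted p = 0.0021). Yet of 24 genes of fat cells and lipid synthesis Srebf1 was the 1 called (4.17%, against 3.34% of all features) and 15 were higher in estimate (median 0.14). Of 38 genes of fatty acid uptake and oxidation limma called 0, and the methods' test after adjustment called 0. An unadjusted limma p under 0.05 was found for 4 of these 38 genes and for 1719 of all 9081 features. The median of the uptake and oxidation list was 0.11 with all arrays, -0.03 without old replicate 1 and 0.18 without old replicate 5. Fat cell markers had a summed intensity of 8382 to 18118 on old arrays and 4890 to 9698 on young arrays, and the part of fat cells in these levels was not tested.

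Among carbohydrate and redox enzymes single genes passed the test. Gpd1, which links glycolysis to glycerol phosphate, measured 8.72, 9.22, 8.61, 8.95 and 9.37 in old and 9.70, 9.62, 9.68, 9.70 and 9.60 in young muscle. The young arrays were tightly grouped above all old ones (1.61-fold lower, -0.69 ± 0.15, adjusted p = 0.0154, but 0.119 under median scaling). Gpd1 was the 1 of 33 glycolysis and glycogen genes called (3.03%, against 3.34% of all features), beside a list median of -0.19. Gstm2, a glutathione transferase, was 1.51-fold higher (0.60 ± 0.13, adjusted p = 0.0135, but 0.331 under median scaling), with a median of -0.07 over 45 antioxidant and glutathione genes that lay at 0.02 without old replicate 3. Aldh1a1, which makes retinoic acid, was 1.94-fold higher (0.95 ± 0.18, adjusted p = 0.00713, but 0.0836 under median scaling).

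Of the 17 changed transporter genes 12 were higher and 5 lower. Slc23a3, an orphan member of the ascorbate transporter family, measured 6.89, 5.66, 5.62, 6.34 and 6.71 on the old arrays and 5.34, 4.76, 4.73, 5.22 and 4.62 on the young arrays. The groups lay close but apart (2.48-fold, 1.31 ± 0.24, adjusted p = 0.00478), and Slc23a3 was detected on 5 old and 2 young arrays. Slc1a1, which takes up glutamate and cysteine, measured 6.85, 6.25, 6.48, 6.97 and 6.09 in old and 5.19, 5.09, 5.06, 6.00 and 5.58 in young muscle, again with no overlap (2.21-fold, 1.14 ± 0.21, adjusted p = 0.00478). Slc30a1, the zinc exporter of the plasma membrane, measured 6.48, 6.13, 6.62, 6.81 and 5.47 in old and 5.40, 5.52, 5.05, 5.10 and 5.26 in young muscle, where old replicate 5 fell between young values (2.05-fold, 1.04 ± 0.20, adjusted p = 0.00822).

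In the other direction, Slc41a3, of the magnesium transporter family, measured 9.07, 10.02, 9.34, 9.34 and 9.58 on the old arrays and 10.20, 10.26, 10.32, 10.48 and 10.16 on the young arrays. Old replicate 2 came closest to the young range (1.76-fold lower, -0.81 ± 0.15, adjusted p = 0.00454), and a further probe gave -0.80. Mfsd4b1, a transporter of the sodium-coupled glucose carrier family, was 1.82-fold lower (-0.86 ± 0.13, adjusted p = 0.00134). Aqp4, the water channel of fast fibre membranes, measured 8.17, 8.42, 8.31, 8.57 and 7.60 in old and 9.51, 8.81, 9.72, 9.77 and 8.95 in young muscle. It was 2.20-fold lower with no overlap (-1.14 ± 0.25, adjusted p = 0.0183), a call lost without young replicate 3 (0.0531) or 4 (0.0561). Over 129 plasma membrane solute carriers 5 rose (3.88%) and 2 fell (1.55%), against 1.72% and 1.62% of all features, and 60 differences were positive and 69 negative with a median of -0.03.

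Growth factor genes included a ligand and its receptor that moved in opposite directions. Gdnf, a survival factor for motor neurons that muscle releases, measured 6.30, 5.93, 6.44, 6.26 and 5.51 on the old arrays and 5.15, 5.41, 5.13, 5.50 and 5.04 on the young arrays. Old replicate 5 barely exceeded the highest young array and the other old arrays were well above it (1.79-fold, 0.84 ± 0.16, adjusted p = 0.00557). Ret, the kinase through which Gdnf signals, measured 5.07, 5.32, 4.88, 4.92 and 5.21 in old and 5.70, 5.66, 6.10, 5.94 and 5.80 in young muscle. Here the young arrays lay above all old arrays (1.69-fold lower, -0.76 ± 0.14, adjusted p = 0.00544).

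Ncam1, the neural cell adhesion molecule that spreads over fibres without a nerve, was 2.08-fold higher (1.06 ± 0.17, adjusted p = 0.00236), while another probe of the gene gave -0.10. Cdk5r1, the neuronal activator of the kinase Cdk5, was 1.66-fold higher (0.73 ± 0.14, adjusted p = 0.00655). Across 41 genes of axon guidance and neural growth 2 rose and 3 fell, 12.2% called against 3.34% of all features. Their median was -0.13, which lay at 0.00 when only genes detected on all 10 arrays were counted.

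Smad3, which carries TGF-beta and myostatin signals to the nucleus, measured 8.02, 8.52, 9.08, 8.64 and 8.70 in old and 9.31, 9.26, 9.52, 9.64 and 9.54 in young muscle. There was no overlap (1.82-fold lower, -0.86 ± 0.15, adjusted p = 0.00411). Fst, the follistatin that binds and blocks activin and myostatin, measured 6.95, 6.89, 7.02, 6.74 and 6.33 in old and 6.29, 5.84, 6.20, 6.07 and 5.83 in young muscle. Its old arrays all exceeded the young ones, old replicate 5 only narrowly (1.67-fold, 0.74 ± 0.15, adjusted p = 0.0118, but 0.0687 under median scaling). Of 38 genes of TGF-beta, BMP and myostatin signalling 1 rose and 2 fell (7.89% called, against 3.34% of all features) with a median of -0.04.

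Further signalling genes rose. Cpne2, a copine that binds membrane lipids when calcium rises, measured 9.27, 9.23, 9.27, 9.69 and 9.37 on the old arrays and 7.16, 7.53, 6.87, 8.15 and 7.15 on the young arrays. The old arrays were nearly level and more than a log2 unit above the highest young array (3.98-fold, 1.99 ± 0.21, adjusted p = 3.84e-05). Npr3, the clearance receptor of natriuretic peptides, was 2.50-fold higher (1.32 ± 0.28, adjusted p = 0.0154), the atypical kinase Prkcz 2.46-fold (1.30 ± 0.18, adjusted p = 0.000478) and the mouse decoy death receptor Tnfrsf22 2.24-fold (1.16 ± 0.24, adjusted p = 0.0127). Rab15, a GTPase of endosome recycling, measured 8.62, 8.74, 7.83, 7.85 and 7.59 in old and 6.75, 6.81, 6.82, 7.21 and 6.73 in young muscle. It was separate in every array (2.40-fold, 1.26 ± 0.22, adjusted p = 0.00305). Over 116 small GTPases and their regulators 6 rose (5.17%) and 1 fell (0.862%), against 1.72% and 1.62% of all features, with the median at 0.00.

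The insulin signalling list had a median of -0.03 over 35 genes, 1 higher and 3 lower. That is 11.4% called, against 3.34% of all features. Irs2, the substrate that passes the insulin signal to its kinases, measured 8.54, 8.23, 7.22, 8.04 and 8.79 in old and 8.29, 9.51, 9.56, 10.54 and 10.42 in young muscle, so that young replicate 1 sat among the old arrays. It was 2.83-fold lower (-1.50 ± 0.38, adjusted p = 0.035), and the call was lost with the 10 arrays fitted alone (adjusted p = 0.0588), without old replicate 1 (0.0507), 2 (0.0564), 3 (0.0625) or 4 (0.0803) and without young replicate 2 (0.0671), 3 (0.064), 4 (0.0993) or 5 (0.103).

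Of the 20 changed genes of transcription and chromatin 6 were higher and 14 lower. Runx1, a factor of blood stem cells that fibres express after nerve loss, measured 5.74, 5.99, 7.69, 5.94 and 5.79 on the old arrays and 4.68, 4.74, 4.63, 4.93 and 4.86 on the young arrays. Old replicate 3 was far above the other old arrays, which still cleared the young range (2.76-fold, 1.46 ± 0.27, adjusted p = 0.00502). Runx1 was detected on 5 old and 2 young arrays. Hr, the hairless corepressor of nuclear receptors, measured 9.23, 9.62, 9.84, 8.81 and 10.29 in old and 10.51, 10.70, 10.58, 11.16 and 10.96 in young muscle. It was lower on every old array (2.34-fold, -1.23 ± 0.21, adjusted p = 0.00323), and a further probe gave -1.01.

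Kmt5a, which places a single methyl group on lysine of histone H4 during the cell cycle, measured 8.71, 8.96, 8.84, 8.88 and 9.46 in old and 9.91, 10.01, 9.91, 9.64 and 10.06 in young muscle. It was 1.92-fold lower (-0.94 ± 0.14, adjusted p = 0.00111), and both other probes were lower too (-0.86 and -0.91). Kmt5c, which adds further methyl groups to the same residue, measured 6.49, 6.92, 6.11, 6.56 and 6.43 in old and 7.10, 7.26, 7.21, 7.24 and 7.16 in young muscle. The groups did not overlap (1.62-fold lower, -0.69 ± 0.15, adjusted p = 0.0179, but 0.0601 under median scaling). They were the 2 of 64 chromatin and sirtuin genes called, 3.12% against 3.34% of all features, and 36 differences of that list were positive and 28 negative with a median of 0.04.

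Genes induced within minutes of a stimulus were lower in estimate as a list, with uneven young arrays. Of 27 immediate early genes 20 had negative and 7 positive differences, and the median was -0.43 against -0.02 over all features. Only 1 was called (3.7%, against 3.34% of all features). The list's median deviation was -0.17, -0.01, -0.66, -0.31 and -0.36 on the old arrays and -0.60, 0.40, 0.00, 0.21 and -0.05 on the young arrays, so that young replicate 1 lay within the range of the old arrays. The median ran from -0.59 without young replicate 1 to -0.23 without young replicate 2. Nr4a2, the called member and an orphan nuclear receptor, measured 5.49, 4.39, 4.81, 4.88 and 5.17 in old and 5.10, 7.25, 5.97, 7.44 and 6.37 in young muscle. It was 2.78-fold lower (-1.48 ± 0.36, adjusted p = 0.0305), a call lost with the 10 arrays fitted alone (adjusted p = 0.056), without old replicate 2 (0.0705) or 4 (0.071) and without young replicate 2 (0.0855), 4 (0.0878) or 5 (0.0695). Nfil3, a repressor in the circadian clock, measured 9.05, 9.71, 9.32, 9.11 and 9.85 in old and 10.02, 9.86, 10.44, 11.29 and 10.86 in young muscle. It was 2.12-fold lower (-1.09 ± 0.25, adjusted p = 0.0207), a call lost without old replicate 1 (0.0584) or 4 (0.0597) and without young replicate 4 (0.0556) or 5 (0.0681). Of 18 clock genes 1 rose and 1 fell, 11.1% against 3.34% of all features. Cry2, the clock repressor that rose, was 1.73-fold higher (0.79 ± 0.19, adjusted p = 0.029), and its call was lost under median scaling (adjusted p = 0.166), with Z scores (0.0658), with the 10 arrays fitted alone (0.0663), with the replicate block (0.0723), without young replicate 1 (0.0811), 2 (0.0722) or 5 (0.0834) and without old replicate 1 (0.0827) or 4 (0.0872). The median of the clock list was 0.05 with all arrays, -0.06 without young replicate 1 or old replicate 4, -0.01 without old replicate 3 and 0.13 without old replicate 2. Time of day at tissue collection was not given in the sources used here.

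**Figure D3:**
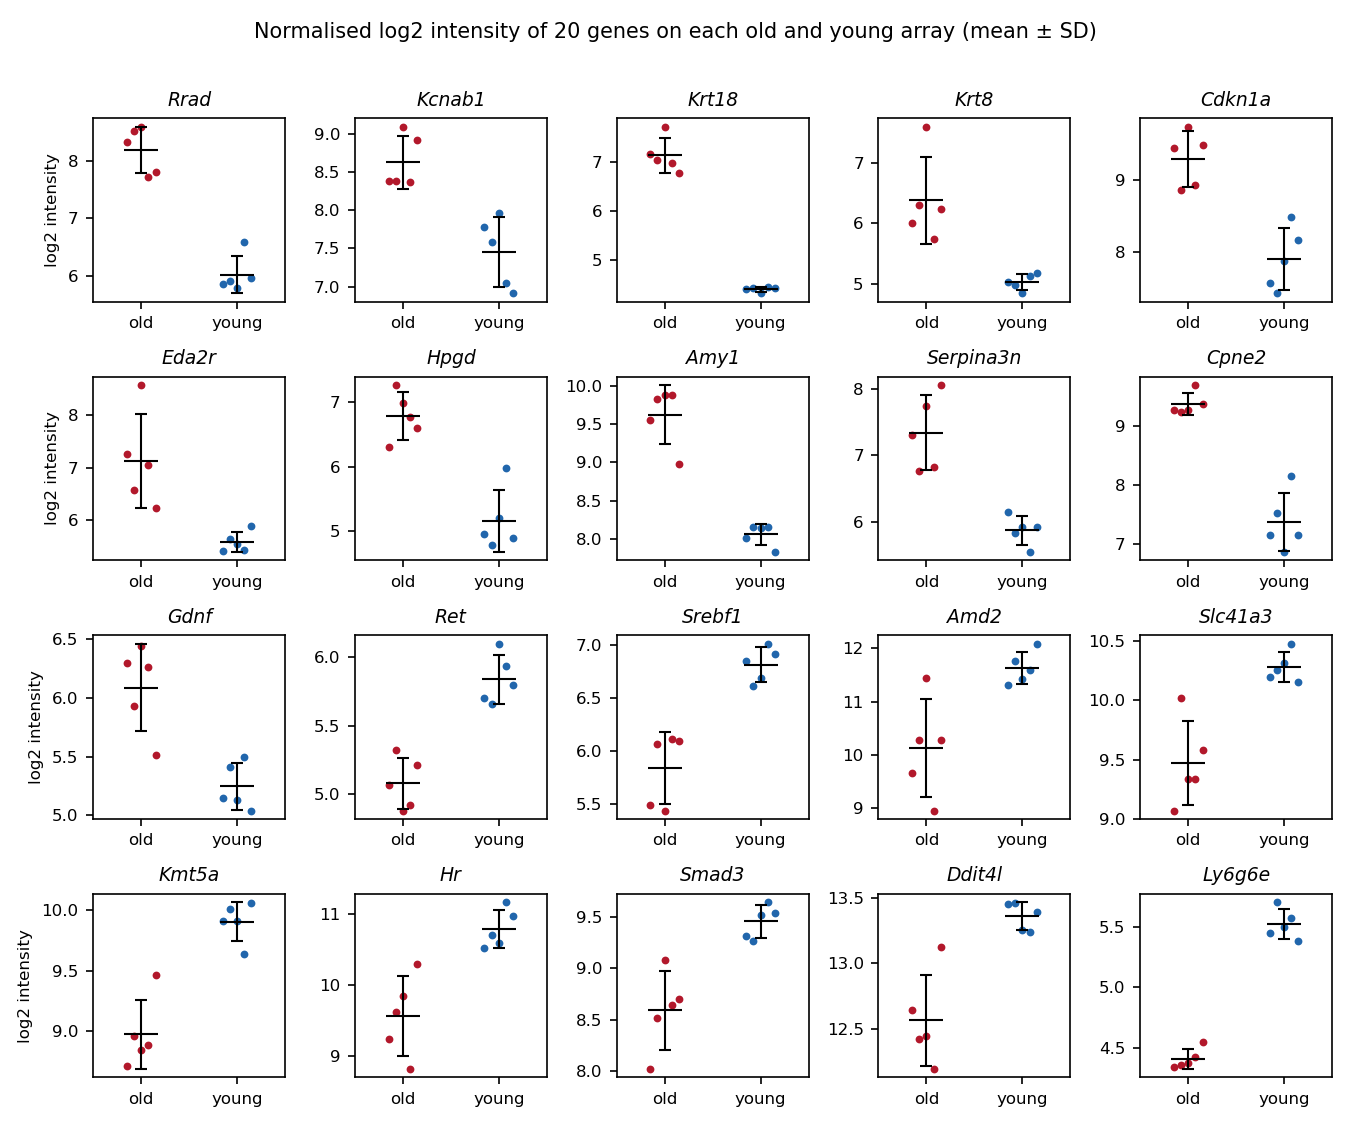
Normalised log2 intensity of 20 genes on each of the 5 old (red, left) and 5 young (blue, right) arrays, with the mean and SD as black bars; each panel has its own y axis, which does not start at 0. Old and young arrays overlap for Amd2 and do not overlap for the other 19 genes.

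Of the 30 changed immune genes 27 were higher, 7 of them macrophage markers. That is 7 of the 16 macrophage markers tested (43.8%, against 1.72% of all features). The marker list was chosen with earlier results of these data known, so this share carries no test. Serpina3n, a secreted inhibitor of serine proteases that rises with inflammation, measured 7.30, 6.76, 7.75, 6.83 and 8.06 on the old arrays and 6.15, 5.82, 5.92, 5.54 and 5.91 on the young arrays. The groups did not overlap (2.77-fold, 1.47 ± 0.24, adjusted p = 0.00228). Gpnmb, a glycoprotein of lysosomes in phagocytes, was 2.36-fold higher (1.24 ± 0.20, adjusted p = 0.0019) and Sla, an adaptor that dampens receptor signalling in leukocytes, 1.71-fold higher (0.77 ± 0.14, adjusted p = 0.00413). None of these is a macrophage marker of the list used. Outside the immune group, Chia1, an acidic chitinase, was 2.32-fold higher (1.21 ± 0.24, adjusted p = 0.00841), and Il4i1, a secreted amino acid oxidase of myeloid cells, was 1.69-fold lower (-0.75 ± 0.16, adjusted p = 0.0166). Ly6g6e, a small surface protein of the Ly6 family, measured 4.34, 4.36, 4.37, 4.42 and 4.55 in old and 5.45, 5.70, 5.50, 5.57 and 5.38 in young muscle. It was detected on 0 old and 5 young arrays, the 1 changed feature of that kind, and was at least 1.62-fold lower in old muscle (-1.11 ± 0.12, adjusted p = 3.84e-05). Macrophage markers had a summed intensity of 6037 to 12445 on old arrays and 3877 to 5799 on young arrays, and their part in the levels of the other immune genes was not tested.

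In protein handling single genes passed the test. Uchl1, a ubiquitin hydrolase abundant in neurons, was 2.18-fold higher (1.12 ± 0.23, adjusted p = 0.0114), and Zfand1, a zinc finger protein of stress granules, 1.58-fold lower (-0.66 ± 0.13, adjusted p = 0.0072). Rbm3, an RNA-binding protein induced by cold, measured 11.81, 11.50, 11.25, 11.91 and 11.99 on the old arrays and 10.76, 10.62, 10.98, 10.62 and 10.69 on the young arrays. Every old array was higher (1.94-fold, 0.96 ± 0.14, adjusted p = 0.000665, but 0.0607 under median scaling). Rbm3 was the 1 of 41 splicing and RNA-binding genes called (2.44%, against 3.34% of all features). Psmc5, an ATPase of the proteasome cap, was 1.39-fold higher (0.47 ± 0.10, adjusted p = 0.0167, but 0.498 under median scaling). It was the 1 of 41 proteasome genes called (2.44%, against 3.34% of all features). Median differences were 0.03 for the proteasome, 0.08 for 40 chaperones, 0.14 for 45 genes of autophagy and the lysosome and 0.02 for 48 translation factors. Of 20 ubiquitin ligase and FoxO genes of muscle atrophy limma called 0 and the methods' test after adjustment 0, with a median of -0.05. An unadjusted limma p under 0.05 was found for 5 of these 20 genes and for 1719 of all 9081 features. The lowest p in that list belonged to Fbxo21, an F-box protein of atrophy (0.53 ± 0.19, adjusted p = 0.133), and it passed the threshold without old replicate 3 (0.70, adjusted p = 0.0127).

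Over 50 secreted matrix proteins and proteases other than collagens 1 rose, Mmp3, and 2 fell, Serpinh1 and P4ha2, which is 6% against 3.34% of all features, with 14 positive and 36 negative differences and a median of -0.12, which was -0.03 without old replicate 3. Among genes of adhesion and vesicle traffic, Emb, an immunoglobulin-like protein that escorts lactate transporters to the membrane, was 1.97-fold higher (0.98 ± 0.16, adjusted p = 0.00257), and Fez1, an adaptor of kinesin transport in axons, 1.67-fold higher (0.74 ± 0.12, adjusted p = 0.00258, but 0.133 under median scaling). Emid1, a secreted protein with a collagen-like stretch, was 1.92-fold lower (-0.94 ± 0.14, adjusted p = 0.00117). Tbc1d10c was 1.88-fold lower (-0.91 ± 0.18, adjusted p = 0.00963, but 0.0531 under median scaling) and Plekhf1 1.92-fold lower (-0.94 ± 0.20, adjusted p = 0.0167, but 0.0657 under median scaling).

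The 39 changed genes with no group included 16 higher and 23 lower. Lrp11, a membrane protein of the lipoprotein receptor family, was 2.61-fold higher (1.38 ± 0.20, adjusted p = 0.000795), as was Armh4 (1.38 ± 0.25, adjusted p = 0.00478), and Tmem53 was 1.98-fold higher (0.99 ± 0.20, adjusted p = 0.0118). Cfap52, a protein of motile cilia, was 1.83-fold lower (-0.87 ± 0.17, adjusted p = 0.00768).

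The level of ribosomal genes depended on 1 old array. The median deviation of 56 cytosolic ribosome genes was 0.16, -0.01, -0.51, 0.22 and 0.15 on the old arrays and -0.05 to 0.02 on the young arrays, so that old replicate 3 lay far below the rest. Their median difference was 0.01 with all arrays and 0.14 without old replicate 3. The 70 mitochondrial ribosome genes had a median of -0.16, and -0.06 without old replicate 3. Of them 59 were lower in estimate with 1 called (1.43%, against 3.34% of all features). Rpl3, a core protein of the large ribosomal subunit, was the 1 cytosolic member called, 1.79% of that list (1.62-fold higher, 0.69 ± 0.15, adjusted p = 0.0159, but 0.159 under median scaling).

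**Figure D4:**
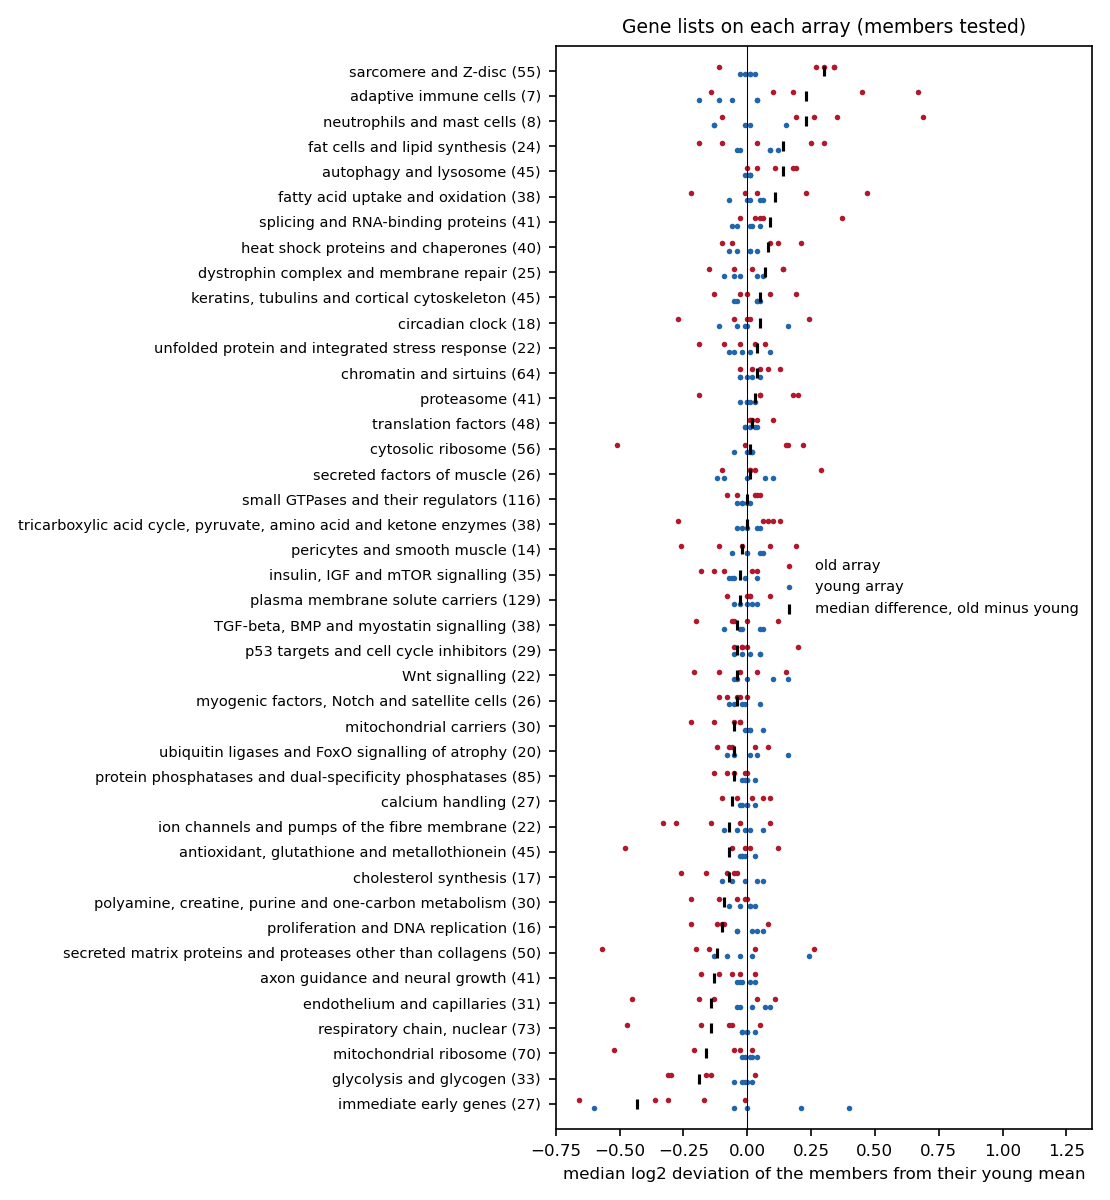
Median log2 deviation of the members of 42 gene lists from their young mean, for each old array (red) and each young array (blue), with the median old minus young difference as a black bar and the number of members tested in parentheses. Sarcomere genes lie highest at 0.30 and immediate early genes lowest at -0.43, and 38 of the 42 medians lie within 0.2 of 0.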

How the data were processed

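The authors deposited raw bead intensities as exported by GenomeStudio 2011.1, per the submitters' processing notes, which were not normalised between arrays. Beside each intensity the deposited table holds a detection p-value against the negative control beads of that array. The authors also deposited a Z score, the natural log of the intensity centred and scaled within its array, which recomputation matched within 0.000924.

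All 15 arrays were corrected for background and quantile normalised together (limma 3.58.1, R 4.3.3, function neqc, offset 16), so that old and young values depend in part on the middle-aged arrays. lmFit and eBayes with an intensity trend fitted a mean per age group, and the contrast of old minus young was tested two-sided with Benjamini-Hochberg adjustment over 9081 features. Where no array of a group detected a gene, its fold was taken against the background of those arrays and written "at least". On simulated data with 9081 features and this comparison's design, 28.4%, 89.6% and 98.5% of genes changed by 0.5, 1 and 2 on the log2 scale were recovered, with 10 false calls. The simulated noise was independent between features and had the same spread in each age group. Old arrays varied more than young ones here, so these rates may differ for the real data. The number of arrays limits the precision. Mice are separate animals per the labels, while slide and hybridisation batch are not given in the sources used here.

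Gene lists, role groups and the genes described were chosen with earlier results of these data known. Named genes had an adjusted p under 0.05, and those with values per array were among the 15 largest non-overlapping rises or falls or the 4 called members of a list with the lowest p. Where a list had no called member, its members with the lowest p could be named. Alternatives changed the background, scaling, detection filter, probe choice, weights, block, test and arrays. Promoters came from RefSeq tables on GRCm38.p6, and no probe or protein sequences were used here.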

Additional observations from a re-analysis of the deposited data

Results flagged for a closer look

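For each of the 82 genes examined in the old and in the young group, the highest or lowest of the 5 arrays was set against the others, and in 10 of 164 groups 1 array lay far from the rest, where chance gives about 1 in 20. Old replicate 3 was the distant array for 4 genes. There Runx1 measured 7.69 against 5.74 to 5.99 on the other old arrays, Tnfrsf22 9.22 against 7.61 to 7.92, Mfsd4b1 6.60 against 6.06 to 6.16, and Tbc1d10c 6.82 against 7.71 to 7.81. On old replicate 5, Camk2a measured 11.14 against 9.87 to 10.24 and Prkcz 5.93 against 6.79 to 7.05. On old replicate 2, Il4i1 measured 6.44 against 5.63 to 5.85. Young replicate 4 was distant for 3 genes, where Rrad measured 6.60 against 5.79 to 5.97 on the other young arrays, Rab15 7.21 against 6.73 to 6.82, and Tnfrsf22 7.44 against 6.73 to 6.88. Of these genes, Camk2a and Tbc1d10c lost their call under median scaling (adjusted p = 0.118 and 0.0531), and Camk2a also without 1 array in 4 cases. The other 7 kept it in all alternatives tested.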

How the results depend on the processing

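The main fit called 303 features (156 higher, 147 lower). Counted anew in each fit, 130 were called with median scaling (81 and 49), 164 with the 10 arrays fitted alone (90 and 74) and 857 with array weights (453 and 404). Dropping old replicate 3 along with middle-aged replicate 5 gave 591 (328 and 263). These are totals of each fit, and not the part of the 303 that kept its call. Leaving out 1 array gave 151 to 711 features, 82 to 326 higher and 69 to 385 lower. The methods' test on Z scores called 22 after adjustment (13 and 9), 13 of them among the 84 most stable, and 564 at its own p and Z ratio (223 and 341). The 564 were counted among the features tested here, without the further intensity threshold of the methods. Other settings kept the counts within 1.5 times, except the lower features under the replicate block below. Replicate numbers did not pair the arrays (correlations of same-numbered deviations -0.23 to 0.078), and with the replicate block 212 features were called (117 and 95).

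No gene described reversed its direction under any alternative. List medians shifted, among other cases, as follows. Several of these shifts were smaller than the range of the list's median deviations over the old arrays. Under median scaling the medians were -0.12 for calcium handling and -0.04 for translation factors. With Z scores, which are on another scale, they were 0.06 for autophagy and lysosome, -0.02 for polyamine and related metabolism, -0.03 for glycolysis, -0.04 for axon guidance and 0.55 for markers of fibres without a nerve, which lay at 0.85 with no background correction. Axon guidance lay at -0.05 with no background correction, -0.01 with no detection filter and 0.00 with genes detected on all 10 arrays, and p53 targets at 0.07 over every probe. Leaving out 1 array, the medians ran from -0.10 to 0.04 for atrophy ligases (0.04 without young replicate 5), from -0.02 to 0.05 for translation factors (-0.02 without old replicate 1) and from -0.01 to 0.07 for chromatin (-0.01 without old replicate 5). Medians of insulin and p53 genes reached 0.01 in 2 such fits each and TGF-beta genes in 1, and cytosolic ribosome genes lay at -0.04 to 0.14. The causes were not tested. Probes near background limit the folds of low genes.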

Other observations

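Old arrays varied more among themselves than young arrays did. The SD was larger in old muscle for 255 of the 303 changed features and for 81.7% of all features. Without old replicate 3 the share over all features was 67.1%, and without any other single old or young array it lay between 77.3% and 83.5%, in a comparison added after seeing the data. Features share arrays, so this share carries no test.

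The arrays of middle-aged muscle of 17 months shared the normalisation and the estimate of spread, and so bore on which features were called (164 with the 10 arrays fitted alone). For 285 of the 303 changed features (94.1%) the middle-aged mean lay between the old and the young mean, against 4097 of all 9081 features (45.1%). Changed features were chosen for a wide gap between the old and young means, in which the middle-aged mean falls more readily, so the difference of these shares carries no test. For 85 of the 285 the middle-aged mean was nearer to the old mean.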
